A study of Mus musculus with 12 samples.

Results

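The 77 genes described here encode proteins of the mitochondrial ribosome and were chosen by name: symbols that start with Mrpl or Mrps followed by a digit, among probe sets paired with 1 gene symbol. They were read by 85 probe sets out of 35556, and the brightest probe set over the 12 arrays stood for each gene, which gave 77 of 19938 genes. Of these, 50 encode proteins of the large subunit, 26 encode proteins of the small subunit, and Mrps36 carries the family's name but is now assigned to the 2-oxoglutarate dehydrogenase complex. Mrps30 and Mrps18a are counted with the large subunit, where their proteins sit in mammalian structures. A bacterial counterpart is known for 48 of the 76 ribosomal proteins, and the other 28 are specific to mitochondria.

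Total RNA was hybridised to 12 Affymetrix arrays, 1 colour each, and came from KY-2 and KY-1, 2 mouse natural killer (NK) cell lines with the genotype p53KO. The 4 groups were KY-2 with a GFP-P2A-FLAG-Myb vector (3 arrays), KY-2 with a GFP vector (2 arrays), KY-1 with the Myb vector (4 arrays) and KY-1 with the GFP vector (3 arrays). All were grown in cRPMI with 200U/mL hIL-15 and sorted for GFP, so p53 loss, IL-15 and transduction are common to every group. Nothing in the labels says whether replicates came from separate cultures, so p-values cover the spread between the arrays at hand and that spread may be technical. Each line is a single line, and a difference between KY-2 and KY-1 compares these 2 lines only.

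Mitochondrial ribosomes translate the few proteins that the mitochondrial genome encodes, all of them core subunits of the respiratory chain and ATP synthase. Their own proteins are encoded in the nucleus, made in the cytosol and imported, and they assemble on mitochondrial rRNA into a small subunit, which decodes the message, and a large subunit, which joins the amino acids. NRF1 and the ETS factor GABPA are known activators of nuclear genes for mitochondrial proteins, and PGC-1 alpha, encoded by Ppargc1a, is a coactivator of such programmes. In mouse NK cells IL-15 supports oxidative metabolism, and Myc is known to support the metabolic activity of cytokine-stimulated NK cells.

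Before the results, 4 facts of the arrays bear on them. The Myb probe set averaged 9.74 with the Myb vector and 5.05 with GFP in KY-2, and 9.57 and 7.99 in KY-1 (log2 scale), so the vector's gene was higher in both lines and the baseline was higher in KY-1. In KY-1, GFP arrays 1 and 2 and Myb arrays 3 and 4 were unusually alike (robust SD of their differences 0.0469 and 0.0433, against 0.102 to 0.172 for the other 11 pairs within groups), and each such pair was averaged and counted as 1 replicate, which left 3 Myb and 2 GFP replicates in each line. The lines differ in NK and T cell markers in both directions: with GFP, limma called 3 of 13 NK markers higher and 6 lower in KY-2, and 3 of 5 T cell markers higher and 1 lower. Among the NK markers, Ncr1, the receptor NKp46, averaged 5.43 in KY-2 with GFP, close to the array medians of 5.31 to 5.42, against 9.72 in KY-1 with GFP, while Prf1, perforin, averaged 10.43 in KY-2 and 8.17 in KY-1, and Eomes, an NK transcription factor, 7.30 and 4.86. Among the T cell markers, Cd3g averaged 12.30 in KY-2 with GFP and 4.62 in KY-1 with GFP, and Cd3e 5.32 and 6.22. Eomes and Cd3g in KY-1 and Cd3e in KY-2 lay within or below the range of the array medians. Of the 13 NK markers 10, 10, 11 and 12 stood above a log2 value of 8 in KY-2 Myb, KY-2 GFP, KY-1 Myb and KY-1 GFP, and 2, 2, 0 and 0 of 5 T cell markers did, with 0 of 3 B cell, 0 of 5 myeloid, 0 of 4 mast cell and basophil and 0 of 2 erythroid markers in any group. Of 3 other markers 1, 0, 1 and 1 did. The part of these markers in the results below was not tested.

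The promoters below show what letters lie just before the start of members that the results turn on, and of Mrpl12, shown for its NRF1 core. Each is the 150 bases upstream of the annotated start, written 5′ to 3′ on the gene's strand, from RefSeq (GRCm38.p6), chosen where no annotated gene overlaps it. Capitals mark a match to an ETS core (CGGAAG or its complement CTTCCG), an NRF1 core (GCGCA, any base, GCGC, or its complement) or a MYB core (TAACNG or its complement). Mrpl16 (chr19:11770265-11770414, plus strand), Mrpl42 (chr10:95501950-95502099, minus strand) and Mrps24 (chr11:5707702-5707851, minus strand) were higher in KY-2, Mrpl52 (chr14:54426759-54426908, plus strand) was lower in KY-2 with Myb, Mrpl10 (chr11:97041432-97041581, plus strand) had the largest difference between vectors in KY-1, and Mrpl12 (chr11:120484487-120484636, plus strand) shows an NRF1 core.
Mrpl16: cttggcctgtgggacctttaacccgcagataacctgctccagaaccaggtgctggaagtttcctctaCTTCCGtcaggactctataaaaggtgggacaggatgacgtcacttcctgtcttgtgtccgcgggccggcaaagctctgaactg
Mrpl42: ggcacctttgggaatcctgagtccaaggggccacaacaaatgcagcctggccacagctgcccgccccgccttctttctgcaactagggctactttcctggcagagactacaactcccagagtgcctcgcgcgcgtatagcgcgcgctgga
Mrps24: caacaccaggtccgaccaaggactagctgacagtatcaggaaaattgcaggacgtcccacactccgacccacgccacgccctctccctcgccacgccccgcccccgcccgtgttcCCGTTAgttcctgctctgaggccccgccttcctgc
Mrpl52: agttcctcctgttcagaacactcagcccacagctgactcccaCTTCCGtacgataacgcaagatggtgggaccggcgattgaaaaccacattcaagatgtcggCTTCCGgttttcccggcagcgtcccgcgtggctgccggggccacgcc
Mrpl10: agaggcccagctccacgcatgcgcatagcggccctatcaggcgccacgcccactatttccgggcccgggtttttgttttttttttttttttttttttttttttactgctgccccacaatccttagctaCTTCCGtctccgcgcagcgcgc
Mrpl12: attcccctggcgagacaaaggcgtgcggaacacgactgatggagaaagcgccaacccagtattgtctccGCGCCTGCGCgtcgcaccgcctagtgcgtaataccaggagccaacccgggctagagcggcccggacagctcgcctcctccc

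Mrpl42 has no capital in this stretch, and Mrps24 alone of the 6 shows a MYB core in it. Over the longer window that runs from 250 bases before the start to 50 after it, 68 of the 77 members had an entry, and both strands were searched. A gene with several entries counted if any of them held the match. The ETS letters were chosen after seeing sequences, and the genes compared with the members were not matched for level or base content. An ETS core was found in 38 of these 68 members (55.9%), against 24.7% of the 15614 genes with an entry, and an NRF1 core in 13 (19.1%), against 7.85%. A YY1 core (AAGATGGCG) was found in 8 (11.8%), against 2.29%, a MYB core in 12 (17.6%), against 23.8%, and a CCAAT box in 26 (38.2%), against 41.7%. An ETS core and a YY1 core can overlap in AAG, so a window may count for both. A match describes letters in a window and shows no binding.

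With the Myb vector, no member of the family passed the test in either line. In KY-1 the members lay mostly a little above their GFP level, with a median difference of 0.088 log2 (0.060 to 0.132 over 19 alternative settings). The KY-2 median was -0.040 (-0.059 to -0.006 over the same settings), and near 0 after a second quantile normalization.

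In KY-1, limma called 0 of 77 members between Myb and GFP at an adjusted p under 0.05, where 1.22% of all genes were called. At an unadjusted p under 0.05 there were 10 of 77, against 11% of all genes. The difference was above 0 for 65 members and below 0 for 12, between -0.315 (Mrps36) and 0.35 (Mrpl10), with a median of 0.088 over members and -0.001 over all genes. The large subunit had a median of 0.105 (44 of 50 above 0) and the small subunit one of 0.0584 (21 of 26 above 0). The Myb and GFP arrays had no overlap for 30 members (39%), against 19% of all genes. Of the 10591 genes above the median of all probe sets, where every member lies, 2770 had no overlap and 1455 an unadjusted p under 0.05. Markers of other cells also moved with Myb in KY-1: 2 of 4 mast cell and basophil markers were called higher, Mcpt8 (7.08 with Myb and 5.32 with GFP) and Cpa3 (5.96 and 4.86), and 1 of 5 T cell markers, Cd3g (7.14 and 4.62). The GFP values of Mcpt8, Cpa3 and Cd3g lay within or below the range of the array medians, 5.31 to 5.42. Of 13 NK markers 1 was called higher, Gzma, and 3 lower, among them Ncr1 (7.76 with Myb and 9.72 with GFP). Their part in the members' values was not tested.

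Mrpl10, a protein at the base of the stalk that recruits translation factors, had the smallest p in KY-1 (probe set 10380732). It stood at 9.83, 9.76, 9.77 and 9.70 on the 4 Myb arrays, against 9.36, 9.33 and 9.50 on the 3 GFP arrays. The lowest Myb array lay above the highest GFP array. The fitted difference was 0.35 ± 0.09 log2 (SE; 3 and 2 replicates; limma adjusted p = 0.127), or 1.27-fold.

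Mrps28, a small subunit protein (probe set 10497209), stood at 10.74, 10.79, 10.79 and 10.80 on the KY-1 Myb arrays, against 10.55, 10.53 and 10.51 on the GFP arrays, with no overlap. Its difference was 0.25 ± 0.07 (limma adjusted p = 0.176). Mrps34, a small subunit protein without a bacterial counterpart (probe set 10442638), stood at 9.58, 9.54, 9.51 and 9.62 with Myb, against 9.38, 9.39 and 9.24 with GFP, again with no overlap and a difference of 0.25 ± 0.08 (adjusted p = 0.242). These calls depend on the model. With all 12 arrays as separate replicates the adjusted p of Mrpl10 was 0.0111 and that of Mrps28 0.016. With a trend in the variance against the mean level, the adjusted p was 0.0107 for Mrpl10, 0.00555 for Mrps28 and 0.0470 for Mrps34. Over the genes above the median of all probe sets it was 0.0413 for Mrpl10 and 0.0465 for Mrps28.

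KY-1 arrays also fell into sets that deviated together across the vectors: GFP arrays 1 and 2 with Myb arrays 3 and 4, and GFP array 3 with Myb arrays 1 and 2 (correlations of the deviations 0.245 to 0.255 between vectors). Within the first set the median member difference between Myb and GFP was 0.065, with 55 of 77 members higher, and within the second it was 0.116, with 67 of 77 higher. With this set as a block, limma called 0 members, and 12 passed an unadjusted p under 0.05. The share of all genes in that setting is not given here.

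In KY-2, limma called 0 of 77 members between Myb and GFP, where 2.83% of all genes were called, and 5 passed an unadjusted p under 0.05, against 13.2% of all genes. The difference was above 0 for 29 members and below 0 for 48, with a range of -0.238 to 0.207 and a median of -0.040, against 0.011 over all genes. The median was -0.006 after a second quantile normalization, with 36 members above 0. The Myb and GFP arrays had no overlap for 29 members (37.7%), against 31% of all genes. Of the 10591 genes above the median of all probe sets, where every member lies, 4097 had no overlap and 1768 an unadjusted p under 0.05. In KY-2, 4 of 13 NK markers and 2 of 5 T cell markers were called lower with Myb, and 0 of 4 mast cell and basophil markers were called. The medians were -0.0351 in the large subunit (17 of 50 above 0) and -0.0221 in the small subunit (12 of 26 above 0).

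Mrpl16, whose bacterial counterpart lies near the peptidyl transferase centre of the large subunit (probe set 10461663), had the smallest p in KY-2. It stood at 9.57, 9.61 and 9.52 on the Myb arrays, against 9.82 and 9.78 on the GFP arrays. All 3 Myb arrays lay below both GFP arrays, and the difference was -0.24 ± 0.07 (limma adjusted p = 0.149). The adjusted p was 0.043 over the genes above the median of all probe sets and 0.0247 with a trended variance.

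Mrps35, a small subunit protein (probe set 10542824), stood at 8.82, 8.97 and 8.99 with Myb in KY-2, against 8.71 and 8.73 with GFP, a difference of 0.21 ± 0.08 (limma adjusted p = 0.303). Mrpl19, a large subunit protein (probe set 10545576), stood at 8.95, 8.97 and 8.94 with Myb, against 8.81 and 8.71 with GFP, a difference of 0.19 ± 0.08 (adjusted p = 0.320). In both genes every KY-2 Myb array lay above the GFP arrays, and neither passed the test.

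Averaged over the lines, limma called 0 of 77 members (3.1% of all genes), with 9 at an unadjusted p under 0.05 against 13.8% of all genes, and the smallest adjusted p was 0.0896 for Mrps34 (0.20 ± 0.06). Mrps28 had 0.16 ± 0.05 (adjusted p = 0.149) and Mrpl10 0.19 ± 0.06 (adjusted p = 0.184). Mrps34 passed with a second quantile normalization (adjusted p = 0.0449) and, as did Mrps28, with all 12 arrays as replicates (0.0333 and 0.0331). Both also passed over the genes above the median of all probe sets (0.0252 and 0.0412), and with a trended variance so did Mrpl10 (0.00981, 0.00616 and 0.0318 for Mrps34, Mrps28 and Mrpl10).

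**Figure D1:**
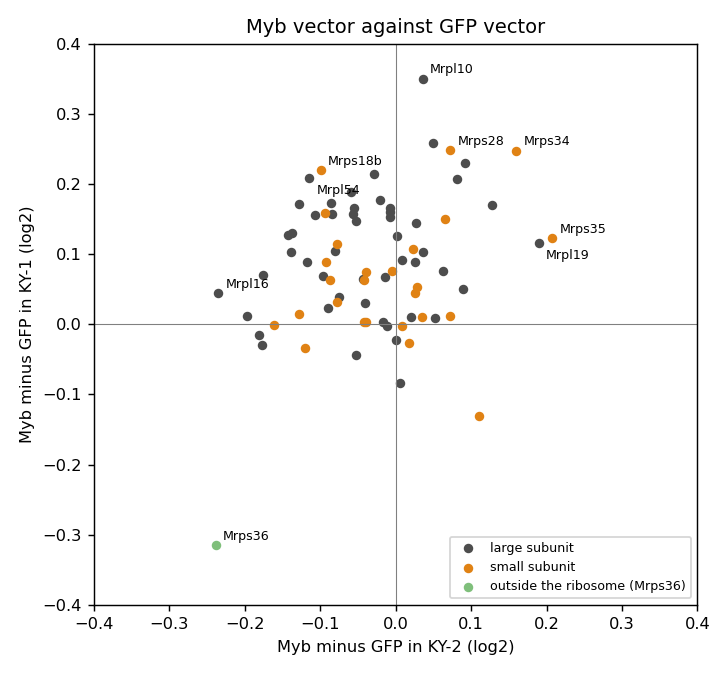
Difference between Myb and GFP (log2) in KY-2 on the horizontal axis and in KY-1 on the vertical axis, 1 point a gene, coloured by subunit. Most points lie above the horizontal zero line (65 of 77 above 0 in KY-1) and to the left of the vertical one (29 of 77 above 0 in KY-2), and no gene passed the test in either line.

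Whether the Myb effect differed between the lines, KY-2 minus KY-1, was tested directly. Limma called 0 of 77 members, where 0.843% of all genes were called, and 8 passed an unadjusted p under 0.05, against 10.3% of all genes. The median was -0.118 over members and 0.010 over all genes, with 64 members below 0 and 13 above. Without KY-1 GFP array 3 the median was -0.072, with 57 members below 0, and with median centring it was -0.181. The largest size below 0 was that of Mrpl54 (-0.32 ± 0.11, limma adjusted p = 0.302), followed by Mrps18b (-0.32 ± 0.12, adjusted p = 0.366), a small subunit protein, and Mrpl10 (-0.31 ± 0.13, adjusted p = 0.429). Mrpl16 had -0.28 ± 0.10 (adjusted p = 0.346).

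Mrps18b stood at 9.14, 9.31 and 9.22 in KY-2 with Myb, against 9.33 and 9.32 with GFP, and at 9.31, 9.24, 9.24 and 9.19 in KY-1 with Myb, against 8.94, 8.98 and 9.12 with GFP. Its Myb arrays lay below the GFP arrays in KY-2 and above them in KY-1, and the difference between the effects did not pass the test. The 8 members with an unadjusted p under 0.05 were Mrpl54, Mrpl16, Mrps18b, Mrpl38, Mrpl28, Mrpl10, Mrpl18 and Mrpl21, all below 0.

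Taken array by array, the members' median deviation from their means over the 4 groups was -0.028, 0.063 and 0.016 in KY-2 with Myb and 0.055 and 0.049 in KY-2 with GFP. It was 0.003, -0.041, 0.016 and 0.017 in KY-1 with Myb and -0.074, -0.066 and -0.101 in KY-1 with GFP. The 3 KY-1 GFP arrays are the lowest of the 12, and the Myb and GFP arrays of KY-2 overlap. Over all genes the same medians lay between -0.024 and 0.041. In RNA from whole cultures, fewer cells with high levels and less of these mRNAs per cell cannot be told apart.

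**Figure D2:**
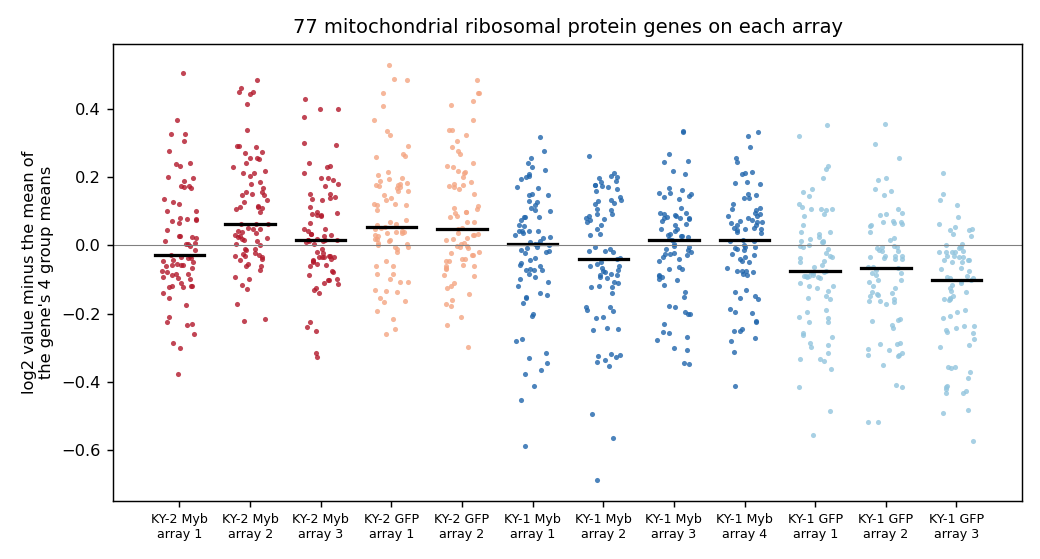
Each point is 1 of 77 members on 1 array, plotted as its log2 value minus the mean of the gene's 4 group means, and the black line is the array's median over members. The medians of the 3 KY-1 GFP arrays, -0.074, -0.066 and -0.101, lie below those of the other 9 arrays.

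Between the lines, limma called 41.6% of the members with GFP and 45.5% with Myb. Among genes above the median of all probe sets it called 44.5% and 49.8%. With the GFP vector 29 members were higher in KY-2 than in KY-1 and 3 were lower, and with the Myb vector 23 were higher and 12 lower. The largest differences were near 1 log2 unit: Mrpl54 was 2.08-fold, Mrps6 1.89-fold and Mrpl16 1.79-fold higher in KY-2 with GFP. Mrpl48, Mrpl20 and Mrps25 were lower in KY-2 with either vector.

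With GFP, limma called 29 of 77 members higher in KY-2, where 13.6% of all genes were called higher, and 3 lower, where 15.2% were called lower. Together that is 32 members, against 28.9% of all genes called in either direction. Among the 10591 genes above the median of all probe sets, where every member lies, 21.1% were called higher and 23.4% lower, or 44.5% in all, against 41.6% of the members. The median difference was 0.127 over members and -0.039 over all genes, 57 members lay above 0, and 43 had an unadjusted p under 0.05 (38% of all genes). Arrays of both lines did not overlap for 64 members, where 57.4% of all genes had no overlap. Of the 10591 genes above the median of all probe sets, 7936 had no overlap and 5814 an unadjusted p under 0.05. The large subunit had 21 higher and 2 lower of 50 and the small subunit 8 higher and 1 lower of 26.

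With Myb, 23 of 77 members were called higher in KY-2 (14.7% of all genes) and 12 lower (16.9% of all genes), 35 in all (31.6% of all genes). Among genes above the median of all probe sets, 22% were called higher and 27.8% lower, or 49.8% in all, against 45.5% of the members. The median was 0.014 over members and -0.014 over all genes, with 40 members above 0. At an unadjusted p under 0.05 there were 44 members (39.7% of all genes). Arrays did not overlap for 45 members, where 39.9% of all genes had no overlap. Of the 10591 genes above the median of all probe sets, 6396 had no overlap and 6208 an unadjusted p under 0.05. Of the large subunit 16 of 50 were higher and 10 lower, and of the small subunit 7 of 26 were higher and 2 lower.

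These comparisons share no arrays but share the fit's estimate of the spread. The same 23 members were higher in both and the same 3 lower in both, which is 81.2% of the 32 calls with GFP and 74.3% of the 35 calls with Myb, and 0 were called in opposite directions. Over all genes the shared calls were 78.7% of those with GFP and 71.8% of those with Myb, so the members' shares lie near the background. Across the 77 members the log2 differences had a Pearson correlation of 0.935 and a Spearman correlation of 0.903. Over all 19938 genes these were 0.904 and 0.743, and genes are not independent replicates.

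Besides the members described below, Mrpl14, Mrpl32, Mrpl34, Mrpl39, Mrpl4, Mrpl43, Mrpl47, Mrpl49, Mrps2, Mrps21, Mrps26 and Mrps33 were higher in KY-2 with both vectors, by 0.30 to 0.58 log2 with GFP and 0.22 to 0.45 with Myb. Chromosome centring, described below, aside, some of these calls did not hold in every alternative setting. With GFP these were Mrpl39, Mrpl47, Mrps2 and Mrps33, and with Myb they were Mrpl32, Mrpl4, Mrpl47, Mrps2 and Mrps33. Mrpl11, Mrpl24, Mrpl33 and Mrpl36 were called higher with GFP only, and Mrpl38 and Mrpl46 were called lower with Myb only, while 36 members passed neither test. A call with 1 vector and not the other does not show that the lines differed more with it, and the direct test of that difference called 0 members.

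**Figure D3:**
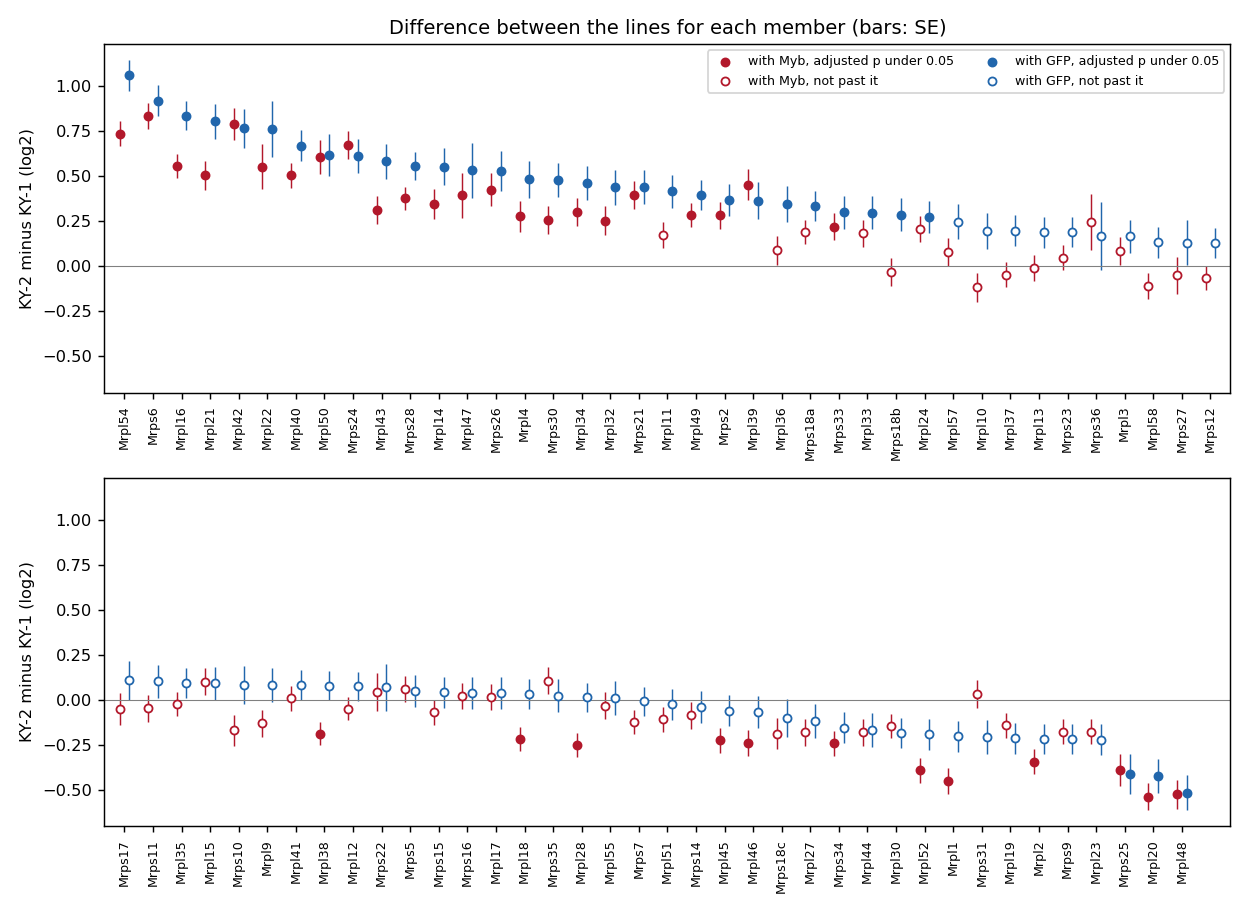
KY-2 minus KY-1 (log2) for each of the 77 members in order of the difference with GFP, with Myb in red and GFP in blue, bars of 1 SE and filled points for a limma adjusted p under 0.05. The order runs down from Mrpl54 (1.06 with GFP, 0.74 with Myb) to Mrpl48 (-0.52 with GFP, -0.53 with Myb).

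Among the large subunit proteins, Mrpl54, which has no bacterial counterpart (probe set 10371107), differed most. It stood at 9.72, 9.84 and 9.79 in KY-2 with Myb, against 8.98, 9.05, 9.09 and 9.14 in KY-1 with Myb, and at 9.92 and 9.88 in KY-2 with GFP, against 8.84, 8.88 and 8.82 in KY-1 with GFP. Every KY-2 array lay above every KY-1 array. The difference was 1.06 ± 0.09 with GFP (limma adjusted p = 3.75e-06) and 0.74 ± 0.07 with Myb (adjusted p = 1.06e-05).

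Mrpl16 had 9.57, 9.61 and 9.52 in KY-2 with Myb, against 9.0, 9.02, 8.99 and 9.02 in KY-1 with Myb. With GFP it had 9.82 and 9.78 in KY-2, against 8.97, 8.93 and 8.98 in KY-1. The lines do not overlap, and the differences were 0.84 ± 0.08 with GFP (limma adjusted p = 1.25e-05) and 0.56 ± 0.06 with Myb (adjusted p = 4.91e-05).

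Mrpl42, a large subunit protein specific to mitochondria (probe set 10372078), had 11.47, 11.63 and 11.56 in KY-2 with Myb, against 10.80, 10.60, 10.90 and 10.89 in KY-1 with Myb. With GFP it had 11.53 and 11.57 in KY-2, against 10.83, 10.86 and 10.73 in KY-1. The lines do not overlap and the vectors do within each line. The differences were 0.77 ± 0.11 with GFP (limma adjusted p = 0.000257) and 0.79 ± 0.09 with Myb (adjusted p = 3.63e-05).

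Mrpl21, a large subunit protein with a bacterial counterpart (probe set 10460151), had 10.55, 10.56 and 10.60 in KY-2 with Myb, against 9.93, 10.20, 10.06 and 10.09 in KY-1 with Myb, and 10.76 and 10.65 in KY-2 with GFP, against 9.90 on each of the 3 KY-1 GFP arrays. The lines do not overlap (0.80 ± 0.10 with GFP, limma adjusted p = 9.18e-05; 0.50 ± 0.08 with Myb, adjusted p = 0.00052). Mrpl22, whose bacterial counterpart lines the exit tunnel for the growing chain (probe set 10376320), had 8.44, 8.76 and 8.42 in KY-2 with Myb, against 7.73, 8.07, 8.18 and 8.18 in KY-1 with Myb, and 8.72 and 8.76 in KY-2 with GFP, against 8.09, 8.02 and 7.90 in KY-1 with GFP. Its differences of 0.76 ± 0.15 with GFP and 0.55 ± 0.13 with Myb passed the test (limma adjusted p = 0.00308 and 0.00555).

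Mrpl40 (probe set 10438400) and Mrpl50 (probe set 10512901), large subunit proteins specific to mitochondria, were also higher in KY-2. Mrpl40 averaged 9.41 ± 0.04 in KY-2 with Myb and 8.91 ± 0.01 in KY-1 with Myb (SD, n = 3 each), and 9.51 ± 0.11 in KY-2 with GFP and 8.84 ± 0.04 in KY-1 with GFP (SD, n = 2 each). Mrpl50 averaged 9.62 ± 0.10 in KY-2 with Myb and 9.01 ± 0.16 in KY-1 with Myb (SD, n = 3 each), and 9.63 ± 0.03 in KY-2 with GFP and 9.02 ± 0.12 in KY-1 with GFP (SD, n = 2 each). For both, KY-2 arrays lay above KY-1 arrays with either vector, and limma adjusted p-values were at most 0.00211.

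Among the small subunit proteins, Mrps6 (probe set 10436941), which has a bacterial counterpart, differed most. It had 9.85, 9.76 and 9.78 in KY-2 with Myb, against 8.90, 9.03, 9.0 and 8.94 in KY-1 with Myb, and 9.84 and 9.72 in KY-2 with GFP, against 8.86, 8.83 and 8.87 in KY-1 with GFP. No arrays overlap between the lines. The difference was 0.92 ± 0.09 with GFP (limma adjusted p = 1.31e-05) and 0.83 ± 0.07 with Myb (adjusted p = 4.57e-06).

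Mrps24, whose bacterial counterpart lies at the entry of the mRNA channel (probe set 10383999), had 9.67, 9.79 and 9.64 in KY-2 with Myb, against 9.0, 9.01, 9.07 and 9.10 in KY-1 with Myb. With GFP it had 9.64 and 9.62 in KY-2, against 9.13, 9.10 and 8.92 in KY-1. The lines do not overlap, and the difference was 0.61 ± 0.10 with GFP and 0.67 ± 0.08 with Myb (limma adjusted p = 0.000538 and 4.88e-05). Mrps28 was higher as well, by 0.55 ± 0.08 with GFP and 0.38 ± 0.06 with Myb (adjusted p = 0.000267 and 0.000798).

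The members lower in KY-2 were led by Mrpl48, a large subunit protein specific to mitochondria (probe set 10514298). It had 8.75, 8.95 and 8.80 in KY-2 with Myb, against 9.44, 9.30, 9.34 and 9.33 in KY-1 with Myb, and 8.86 and 8.91 in KY-2 with GFP, against 9.47, 9.47 and 9.33 in KY-1 with GFP. Every KY-2 array lay below every KY-1 array. The differences were -0.52 ± 0.10 with GFP (limma adjusted p = 0.0021) and -0.53 ± 0.08 with Myb (adjusted p = 0.000388).

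Mrpl20, whose bacterial counterpart acts early in assembly of the large subunit (probe set 10511149), had 9.88, 9.95 and 9.84 in KY-2 with Myb, against 10.42, 10.37, 10.50 and 10.49 in KY-1 with Myb. With GFP it had 9.92 and 10.01 in KY-2, against 10.49, 10.46 and 10.30 in KY-1. The lines do not overlap (-0.42 ± 0.09 with GFP, limma adjusted p = 0.00532, and 0.0563 when KY-1 GFP arrays 1 and 2 were left out; -0.54 ± 0.08 with Myb, adjusted p = 0.000227).

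Mrps25, a small subunit protein specific to mitochondria (probe set 10546396), had 8.56, 8.69 and 8.56 in KY-2 with Myb, against 9.01, 8.85, 9.12 and 9.12 in KY-1 with Myb, and 8.65 and 8.49 in KY-2 with GFP, against 9.01, 9.04 and 8.94 in KY-1 with GFP. The lines do not overlap, and the differences were -0.41 ± 0.11 with GFP and -0.39 ± 0.09 with Myb (limma adjusted p = 0.0142 and 0.0057). The call with GFP was lost with chromosome centring, described below (-0.23, adjusted p = 0.115), with median centring (0.0501), without KY-1 GFP arrays 1 and 2 (0.089) and without KY-2 GFP array 2 (0.113).

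With Myb only, the test also called lower Mrpl1 (-0.45 ± 0.07), Mrpl52 (-0.39 ± 0.07), Mrpl2 (-0.34 ± 0.07) and Mrpl28 (-0.25 ± 0.07), with limma adjusted p-values of 0.000505, 0.00113, 0.00234 and 0.0133. Mrpl1 belongs to the mobile stalk near the exit site, and Mrpl2 to the catalytic core. Mrpl52 had 10.27, 10.29 and 10.14 in KY-2 with Myb, against 10.59, 10.65, 10.66 and 10.60 in KY-1 with Myb, with no overlap. Mrps34 was lower as well (-0.24 ± 0.07, limma adjusted p = 0.0206). Its adjusted p was 0.0581 without KY-1 Myb array 1, 0.0506 without KY-1 Myb arrays 3 and 4 and 0.0714 without KY-2 Myb array 1.

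**Figure D4:**
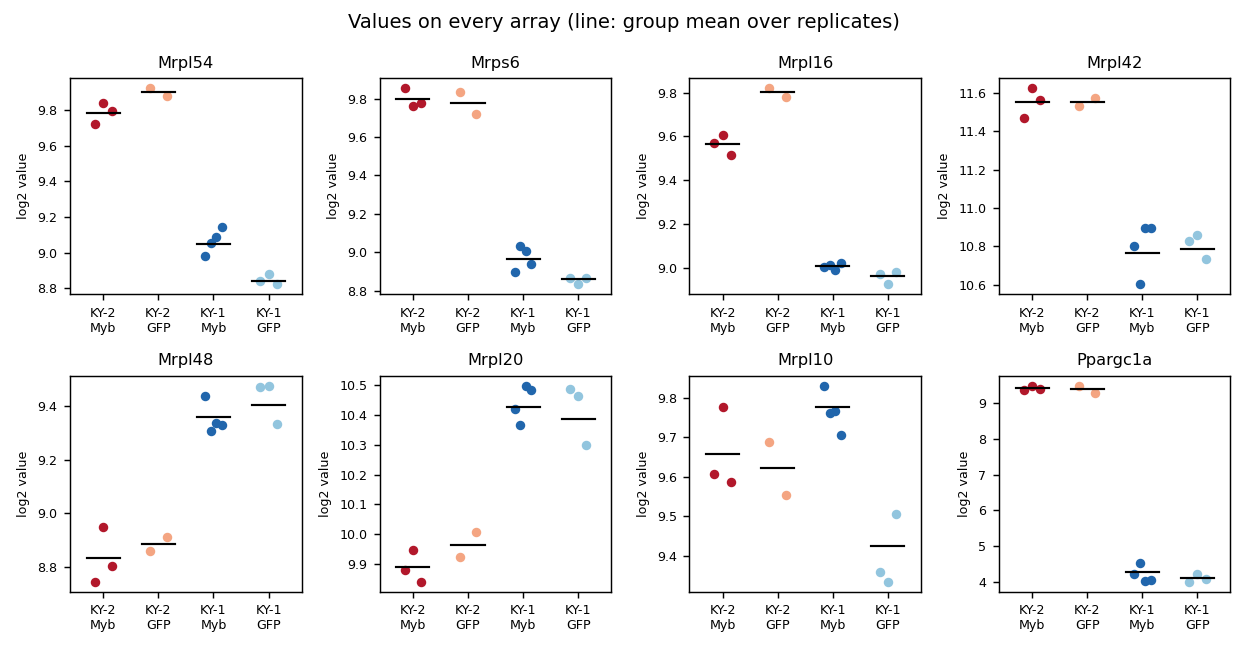
log2 values on every array for 7 members and for Ppargc1a, with the groups KY-2 Myb, KY-2 GFP, KY-1 Myb and KY-1 GFP from left to right and a line at each group's mean over replicates. KY-2 arrays lie apart from KY-1 arrays in Mrpl54, Mrps6, Mrpl16, Mrpl42, Mrpl48, Mrpl20 and Ppargc1a, and Mrpl10 separates the vectors in KY-1 only; each panel has its own axis, which does not start at 0.

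Members with a known special role were described whatever their values. Mrpl12, the stalk protein that also binds the mitochondrial RNA polymerase, averaged 9.94 in KY-2 with Myb, 9.93 in KY-2 with GFP, 9.98 in KY-1 with Myb and 9.86 in KY-1 with GFP, and passed no test. Mrps12, part of the decoding centre, averaged 10.78, 10.86, 10.85 and 10.74 in the same groups and passed none either. The same held for Mrpl58, a peptidyl-tRNA hydrolase that rescues stalled ribosomes (8.49, 8.52, 8.60 and 8.38), for Mrpl44, which has a ribonuclease III fold (8.42, 8.36, 8.60 and 8.53), and for Mrps27, a pentatricopeptide repeat protein (7.34, 7.43, 7.39 and 7.30).

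Mrpl45, which tethers the ribosome to the inner membrane, had 8.06, 8.21 and 8.21 in KY-2 with Myb, against 8.41, 8.40, 8.32 and 8.39 in KY-1 with Myb, and was lower in KY-2 (-0.23 ± 0.07, limma adjusted p = 0.0268), whereas the difference with GFP was -0.06 ± 0.08 (adjusted p = 0.663). Mrpl18, which binds 5S rRNA in the human cell, was lower in KY-2 with Myb (-0.22 ± 0.07, adjusted p = 0.0263). With chromosome centring, described below, Mrpl18 had 0.03 with Myb (limma adjusted p = 0.792). Mrpl45 was then called lower with both vectors, at -0.27 with GFP and -0.33 with Myb (limma adjusted p = 0.0287 and 0.00276). Mrps30 was higher in KY-2 with both vectors, by 0.48 ± 0.10 with GFP and 0.26 ± 0.08 with Myb (adjusted p = 0.0028 and 0.0258). The calls of Mrpl45, Mrpl18 and Mrps30 with Myb did not hold in every alternative setting.

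The 3 paralogues that share homology to bacterial S18 take different places in the ribosome, and they were not tested against each other. Mrps18a was higher in KY-2 with GFP by 0.33 ± 0.08 (limma adjusted p = 0.00978) and had 0.19 ± 0.07 with Myb (adjusted p = 0.0548). Mrps18b was higher with GFP by 0.29 ± 0.09 (adjusted p = 0.0393) and had -0.03 ± 0.08 with Myb (adjusted p = 0.801). The calls of Mrps18a and Mrps18b with GFP did not hold in every alternative setting. With chromosome centring, described below, Mrps18a and Mrps18b were also called higher with Myb, at 0.43 and 0.21 (limma adjusted p = 0.000748 and 0.0475). Mrps18c had -0.10 ± 0.10 with GFP and -0.19 ± 0.08 with Myb (adjusted p = 0.536 and 0.121).

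Mrps36 (probe set 10411722), outside the ribosome, had the largest difference below 0 between Myb and GFP in both lines. It stood at 9.72, 9.81 and 9.72 in KY-2 with Myb, against 9.91 and 10.07 with GFP, and at 9.66, 9.08, 9.79 and 9.76 in KY-1 with Myb, against 9.92, 9.96 and 9.70 with GFP. KY-1 Myb array 2 was the lowest, and neither -0.24 ± 0.17 in KY-2 nor -0.32 ± 0.17 in KY-1 passed the test (limma adjusted p = 0.652 and 0.561).

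The members' chromosomes were compared after their values had been seen. All 10 members on chromosomes 10, 16 and 19 by the RefSeq gene table of GRCm38.p6 (Mrpl42 and Mrpl54; Mrpl39, Mrpl40 and Mrps6; Mrpl11, Mrpl16, Mrpl21, Mrpl43 and Mrpl49) were called higher in KY-2 with GFP, and 9 of them with Myb. On the same chromosomes, 48.9% of the 1212 other genes above the median of all probe sets were called higher with GFP, with a median of 0.310, against 17.3% of 9275 genes on the other chromosomes, with a median of -0.072. By chromosome the medians of the other genes were 0.263 on chromosome 10, 0.281 on 16 and 0.377 on 19, against -0.207 to 0.137 elsewhere. Of the 67 members on other chromosomes 19 were higher and 3 lower, with a median of 0.083.

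After each gene was centred on its chromosome's median on each array, an alternative chosen after seeing the data, 25 of the 32 calls with GFP and 22 of the 35 with Myb remained. Counting new calls, 30 members were then higher and 4 lower with GFP, and 24 higher and 9 lower with Myb, with medians of 0.199 and 0.072. Mrpl54 kept 0.78 ± 0.09 with GFP, Mrps6 0.53 ± 0.10 and Mrpl16 0.44 ± 0.09 (limma adjusted p = 8.32e-05, 0.00309 and 0.00276). Of the 10 members on chromosomes 10, 16 and 19, 4 lost their calls with GFP: Mrpl43 had 0.19, Mrpl11 0.02, Mrpl49 0.00 and Mrpl39 -0.02 (adjusted p = 0.249, 0.877, 0.995 and 0.886). On other chromosomes, Mrpl24, Mrpl47 and Mrps25 lost their calls with GFP (limma adjusted p = 0.241, 0.0503 and 0.115). Mrpl40, Mrpl52, Mrpl2, Mrpl28 and Mrps34 lost their calls with Myb, at adjusted p-values of 0.340, 0.232, 0.304, 0.962 and 0.993. So did Mrps28 (0.19, limma adjusted p = 0.0688) and Mrpl18 (0.03, adjusted p = 0.792). The calls of Mrpl34, Mrpl39, Mrpl43, Mrpl46, Mrpl47 and Mrpl49 with Myb were lost as well.

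**Figure D5:**
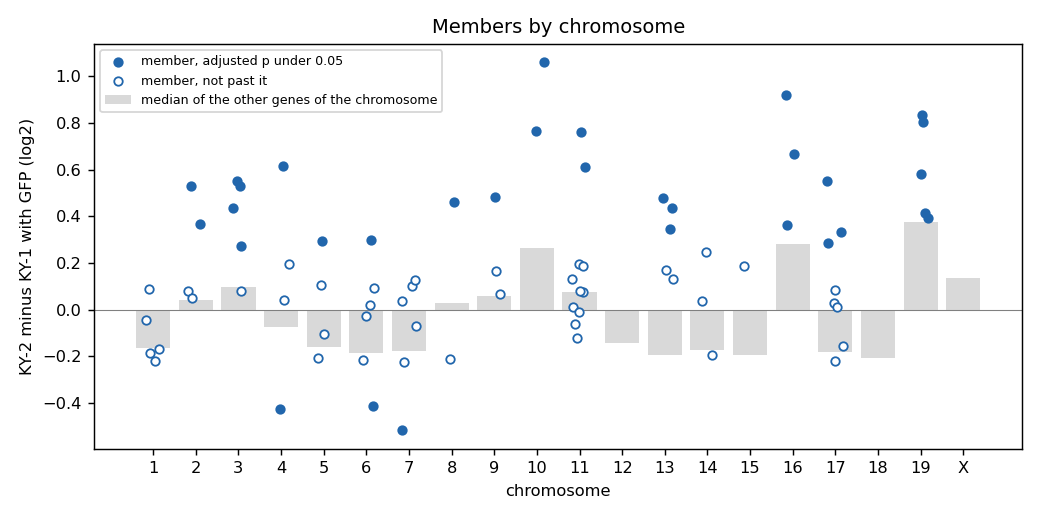
KY-2 minus KY-1 with GFP (log2) for each member by chromosome, filled where the limma adjusted p was under 0.05, with grey bars for the median of the other genes above the median of all probe sets on that chromosome. Bars stand at 0.263, 0.281 and 0.377 on chromosomes 10, 16 and 19, where all 10 members are filled.

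The partners of the ribosome were described from fixed lists, whose counts stand against 13.6% of all genes called higher and 15.2% lower with GFP, and 14.7% and 16.9% with Myb. Of 12 mitochondrial translation factors, 4 were higher and 1 lower in KY-2 with GFP, with a median of 0.0333, and 3 were higher and 1 lower with Myb. Tsfm, the exchange factor of elongation factor Tu, stood at 8.81 and 8.79 in KY-2 with GFP, against 7.76, 7.81 and 7.63 in KY-1 with GFP (1.09 ± 0.11, limma adjusted p = 2.04e-05), and Mrrf, the ribosome recycling factor, at 8.01 and 8.01, against 6.77, 6.90 and 7.05 (1.07 ± 0.12, adjusted p = 4.03e-05). Gfm1, elongation factor G1, was higher by 0.43 ± 0.09 and Tufm, elongation factor Tu, by 0.38 ± 0.10 (adjusted p = 0.00299 and 0.0122). Tsfm lies on chromosome 10, and Mrrf on chromosome 2.

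Of 23 assembly factors tested among 28 listed names, 4 were higher and 4 lower with GFP (17.4% each way, near the background), with a median of -0.112, and 4 higher and 3 lower with Myb. Trmt2b, an rRNA and tRNA methyltransferase, was higher by 1.11 ± 0.08 (limma adjusted p = 1.73e-06). Gtpbp10, a GTPase of large subunit assembly, stood at 7.29 and 7.12 in KY-2 with GFP, against 8.31, 8.37 and 8.15 in KY-1 with GFP (-1.04 ± 0.12, adjusted p = 4.59e-05). Gtpbp10 was also the single gene of these lists called between the vectors, at -0.33 ± 0.08 averaged over the lines (adjusted p = 0.0377), while its values of each line alone did not pass.

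Of 13 genes of mitochondrial RNA synthesis and handling, 4 were higher and 0 lower with GFP, led by Pnpt1, the polynucleotide phosphorylase (0.90 ± 0.12, limma adjusted p = 0.00023), and Elac2, which cuts tRNA 3′ ends (0.52 ± 0.09, adjusted p = 0.00109). Of 16 mitochondrial aminoacyl-tRNA synthetases, 2 were higher and 3 lower with GFP (12.5% and 18.8%, near the background). The median was -0.162, with 11 below 0, and the 2 called higher were Yars2 (0.91 ± 0.17) and Rars2 (0.63 ± 0.10). With Myb 3 were higher and 5 lower (18.75% and 31.25%), with a median of -0.202 and 12 below 0. Of 4 ribosomal proteins outside the naming rule (Dap3, Chchd1, Ptcd3 and Gadd45gip1), only Gadd45gip1 was called, higher by 0.37 ± 0.09 with GFP and 0.27 ± 0.07 with Myb (adjusted p = 0.00761 and 0.0119).

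Of 10 regulators of mitochondrial genes, 4 were higher and 2 lower in KY-2 with each vector. Ppargc1a stood at 9.48 and 9.29 in KY-2 with GFP, against 4.0, 4.21 and 4.09 in KY-1 with GFP, where it lay below the array medians. The fitted difference on the values as deposited was 5.28 log2 (limma adjusted p = 6.54e-10). Set against those medians, a bound that was not tested, the difference was at least 3.98 log2, or at least 15.8-fold. Esrra, Gabpa and Pprc1 were higher with GFP by 0.51 ± 0.12, 0.41 ± 0.11 and 0.40 ± 0.09 (adjusted p = 0.00706, 0.0139 and 0.00701); Gabpa lies on chromosome 16 and the other 2 on chromosome 19. Myc stood at 10.15 and 10.10 in KY-2 with GFP, against 11.54, 11.51 and 11.67 in KY-1 with GFP (-1.47 ± 0.08, adjusted p = 2.4e-07), and Yy1 was lower (-0.54 ± 0.08, adjusted p = 0.000508). Between the vectors 0 of the 10 were called in either line, with 1 at an unadjusted p under 0.05 in each.

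Promoter letters were set beside these differences as a description. Of the 26 members called higher in KY-2 with GFP that had a promoter entry, 57.7% held an ETS core and 19.2% an NRF1 core, against 54.8% and 19% of the 42 other members. Members with a MYB core had a median difference between Myb and GFP of -0.057 in KY-2 and 0.053 in KY-1 (12 members), and members without one had -0.019 and 0.072 (56 members). Mrps24, with a MYB core just upstream of its start, had 0.07 ± 0.09 in KY-2 and 0.01 ± 0.09 in KY-1, and did not pass the test in either line (limma adjusted p = 0.824 and 0.981).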

How the data were processed

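The authors deposited 1 table of log2 values per probe set for 12 arrays, normalized by RMA in Partek per the submitters' processing notes; their versions and options: not given in the sources used here. The table was used as deposited, without a filter on dim probe sets. Of 35556 probe sets, 21789 were paired with 1 symbol by the platform annotation, 1621 with several and 12146 were not listed, and the brightest per gene was kept. The annotation gives no probe positions, so reads of near-identical copies such as pseudogenes cannot be told apart.

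Groups were taken from the sample labels. In R 4.3.3, limma 3.58.1 fitted 1 linear model of the 4 group means over 10 replicates, with Benjamini-Hochberg adjustment over 19938 genes and a threshold of 0.05; the procedure was tested on simulated data. Errors of differences are SEs. Array values are log2, so there is no read depth, and precision is limited by how many arrays there are. Genes named in the text were the members with the largest differences that passed the test or, where none passed, the smallest p, plus members with special roles. Members, lists and tests were chosen with earlier results of these data known. Promoters are from RefSeq (GRCm38.p6), searched for motifs on both strands; the ETS letters were chosen after seeing sequences. Alternatives changed the normalization, the replicates, the gene filter, the variance model and the choice of probe set.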

Additional observations from a re-analysis of the deposited data

How the results depend on the processing

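Over 19 alternatives, 105 counts of calls stayed within their limits and 9 moved. Between Myb and GFP in KY-1, 3 members were called with all 12 arrays as separate replicates, 2 over genes above the median of all probe sets and 4 with a trended variance, all higher, against 0. In KY-2, 1 member (Mrpl16, lower) was called over the brighter genes and 1 with the trend. Averaged over the lines, 2 were called with 12 arrays, 1 with a second quantile normalization, 2 over the brighter genes and 3 with the trend, all higher. The cause was not tested. These counts are given without the share of all genes called in the same setting, so no gain over that share can be read from them. Leaving out each replicate in turn gave 0 to 0 calls for each comparison of the vectors, 23 to 32 between the lines with GFP and 27 to 34 with Myb. Of the medians, 105 also stayed and 9 moved. Between the vectors these were KY-1 with median centring (0.132), KY-2 with a second quantile normalization (-0.006), and the difference with median centring (-0.181) and without KY-1 GFP arrays 1 and 2 (-0.166) or array 3 (-0.072). Between the lines they were GFP with median centring (0.191) and chromosome centring (0.199), and Myb with chromosome centring (0.072) and without KY-2 Myb array 2 (-0.031). Of the values of named members, 711 kept their side of the threshold, 17 came to pass it and 12 no longer did, and Mrps34 between the lines with Myb turned to 0.00119 with chromosome centring (limma adjusted p = 0.993). Same-numbered arrays did not deviate together (correlations -0.321 to -0.002), so the numbers gave no sign of a pairing. With so few arrays a group, this check cannot settle whether same-numbered arrays were handled together. With the replicate block, limma called 0 members between the vectors in KY-1, 0 in KY-2, 0 averaged and 0 for the difference. At an unadjusted p under 0.05 there were 12, 4, 9 and 11, given without the share of all genes in that setting. Between the lines, 31 were called with either vector.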

Other observations

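For 8 members a second probe set was read: Mrpl23, Mrpl27, Mrpl41, Mrpl47, Mrpl51, Mrps33, Mrps36 and Mrps5. Between the lines with GFP, KY-2 minus KY-1, the second probe set had the same sign as the brightest in 7 of the 8. The exception was Mrpl27, at -0.120 on the brightest and 0.024 on the second. Mrps36, the member outside the ribosome, had differences between Myb and GFP of -0.285 in KY-2 and -0.347 in KY-1 on its second probe set, the same sign as on the brightest.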
